A study of Mus musculus with 12 samples.

Results

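The mitotic G2/M genes are 40 genes whose products carry cells from G2 through mitosis and cytokinesis. They were chosen by name: a probe counted when its gene name, an older alias such as Cdc2a for Cdk1, or its accession pointed to one of the listed genes. All 40 were measured, among 20968 genes tested, by 67 probes, and the brightest probe of each gene was well above background on all 12 arrays. The data are one-colour arrays of mouse neural progenitor cells, the dividing precursors of neurons and glia, given single transcription factors by retrovirus. The question the series' title poses is how 6 factors called interfering compare with 5 called non-interfering. Only 10 factors appear among the labels, with no word on the kind of any of them, so that comparison was not made.

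All cultures were neural progenitors of mouse strain 129/Ola. A retrovirus built on pMXs-IRESNeo, which joins the inserted reading frame to a neomycin resistance gene, carried Crebzf, Esx1, Etv6, Gatad2b, Hmga2, Nfxl1, Pax6, Pdx1, Sox11, Zfp451 or, as a control, EGFP. The viral dose was set so that about 95% of cells expressed the insert, G418 was given from 24 h to kill cells without it, and RNA was taken at 72 h. The last culture was labelled mock, and neither its virus nor its G418 treatment is stated by the labels used here. Each of these 12 groups held 1 array and there were no replicates, so no p-value was computed and every value below describes 1 array. The file headers place EGFP, mock, Pax6 and Hmga2 on slide 1, Gatad2b, Etv6, Esx1 and Nfxl1 on slide 2, and Crebzf, Pdx1, Sox11 and Zfp451 on slide 3.

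Mitosis is driven by cyclin-dependent kinase 1 bound to its cyclins, and by the Polo and Aurora kinases that act beside it on the spindle, centromeres and cleavage furrow. Most of these genes are switched on together late in the cell cycle. The MuvB complex first joins B-Myb (Mybl2) and then FoxM1 at their promoters, in dividing cells, and represses the same promoters in resting cells as part of the DREAM complex. Neural progenitors divide actively in culture and express the programme strongly. In RNA from a whole culture, fewer cells in mitosis and less mitotic RNA per cell cannot be told apart.

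The DNA elements through which this control is known to act are the cell cycle genes homology region (CHR) and CCAAT boxes, so the promoters are shown first. RefSeq promoter windows on GRCm38.p6, each from 250 bases before to 50 bases after the start, were matched to 34 of the 40 genes, in 36 windows. Ccna2, Kif20a, Tpx2, Cdc25c, Aurkb and Foxm1 had no entry. The letters searched, on both strands, were TTTGAA or TTCGAA for the CHR, the letters CCAAT themselves, and TTCCCGC or TTGCCGC or TTCGCGC or TTGGCGC for an E2F element. CHR letters stood in the windows of 25 of the 34 genes (73.5%) and in 21.7% of all 27025 genes with windows of the same length. CCAAT stood in 25 (73.5%) against 41.1%, both together in 22 (64.7%) against 8.61%, and E2F letters in 6 (17.6%) against 10.9%. Different motifs overlapped at 3 places, in Ccnb1, Cdca8 and Ect2. A match is only a description of the letters and does not show that a factor binds.

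The 110 bases before the start are given for 8 genes, 5' to 3' along the gene, with matched letters in capitals. The windows of Cdk1, Cdc20, Ube2c, Top2a and Prc1 show the common arrangement, with CCAAT boxes ahead of a CHR (seen as TTCAAA where it lies on the other strand). Ccnb1 has CCAAT boxes without CHR letters, and its first box overlaps an E2F match. Mybl2 and Nusap1, at the opposite ends of the range of values below, have no match to the exact letters searched. Near its end Mybl2 holds ttggcgg, which differs from the searched TTGGCGC in the last base only.
Cdk1: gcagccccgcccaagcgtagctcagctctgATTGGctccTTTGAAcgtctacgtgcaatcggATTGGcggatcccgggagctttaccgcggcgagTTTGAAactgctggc
Cdc20: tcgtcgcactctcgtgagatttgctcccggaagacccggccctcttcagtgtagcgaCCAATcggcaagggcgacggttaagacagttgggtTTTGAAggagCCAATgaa
Ube2c: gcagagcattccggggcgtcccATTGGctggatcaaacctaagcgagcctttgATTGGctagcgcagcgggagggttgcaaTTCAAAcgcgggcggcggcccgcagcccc
Top2a: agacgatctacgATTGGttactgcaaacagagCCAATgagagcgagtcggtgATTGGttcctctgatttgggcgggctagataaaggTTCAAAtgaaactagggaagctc
Prc1: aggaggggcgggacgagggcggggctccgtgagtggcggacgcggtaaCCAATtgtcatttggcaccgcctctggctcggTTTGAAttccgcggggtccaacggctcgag
Ccnb1: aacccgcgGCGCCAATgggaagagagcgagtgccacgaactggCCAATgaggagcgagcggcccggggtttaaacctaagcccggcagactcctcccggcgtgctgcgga
Mybl2: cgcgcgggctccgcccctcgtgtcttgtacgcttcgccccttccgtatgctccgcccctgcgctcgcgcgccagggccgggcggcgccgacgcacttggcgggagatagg
Nusap1: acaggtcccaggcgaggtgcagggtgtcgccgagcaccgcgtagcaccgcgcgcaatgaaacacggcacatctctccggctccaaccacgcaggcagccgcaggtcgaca
Their positions on GRCm38.p6 are chr10:69352913-69353022 (minus strand) for Cdk1, chr4:118437344-118437453 (minus strand) for Cdc20, chr2:164769819-164769928 (plus strand) for Ube2c, chr11:99024190-99024299 (minus strand) for Top2a, chr7:80294366-80294475 (plus strand) for Prc1, chr13:100786487-100786596 (minus strand) for Ccnb1, chr2:163054525-163054634 (plus strand) for Mybl2 and chr2:119618188-119618297 (plus strand) for Nusap1.

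**Figure D1:**
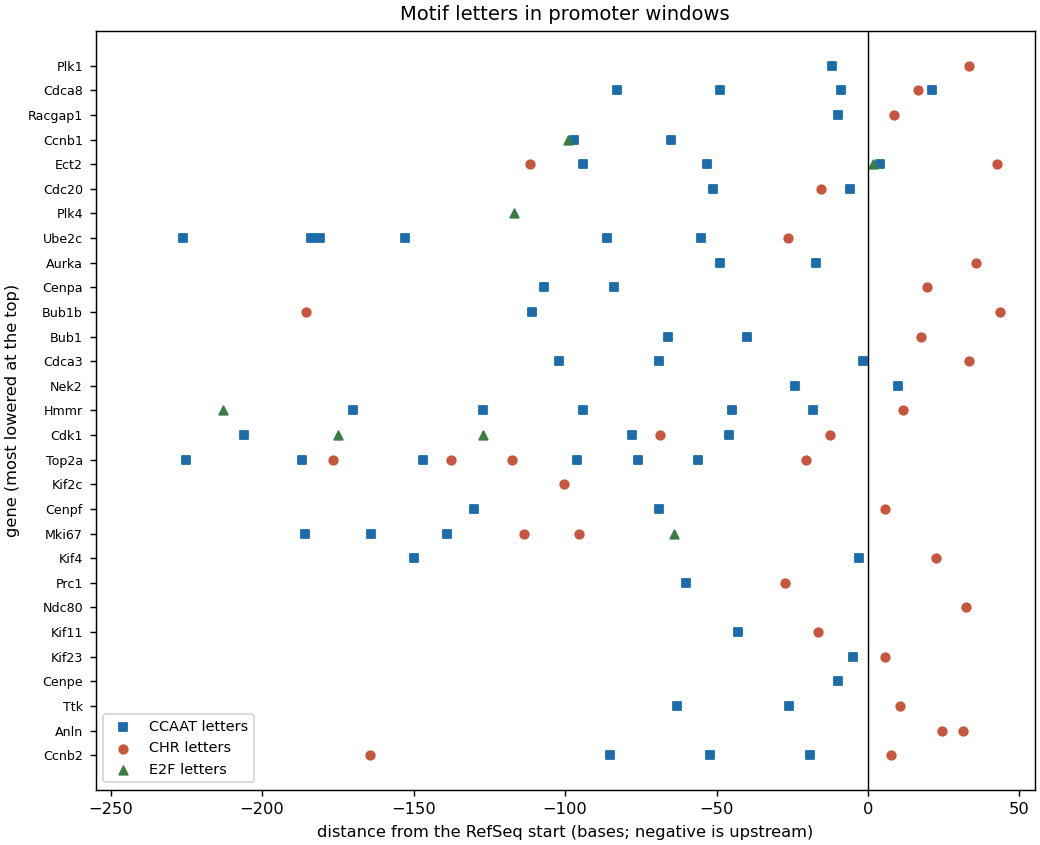
Positions of CCAAT (squares), CHR (circles) and E2F (triangles) letters in the promoter windows, in bases from the RefSeq start on the horizontal axis, with 1 row per gene and the genes with the lowest median difference at the top. The 29 rows are the matched genes with at least 1 motif. CCAAT boxes lie mostly upstream, and many CHR letters lie close to the start on either side.

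Before the genes, 3 facts about the arrays. On no factor's own array did a probe for that factor exceed all other arrays by 2-fold or more, and 3 of 26 such probes were highest there; whether those probes lie inside the inserted reading frames is not known here, so the labels were not checked by them. On the Pax6, Esx1 and 4 slide 3 arrays between 6.28% and 7.42% of genes lay at least 2-fold below both controls, against at most 1.17% on the Hmga2, Gatad2b, Etv6 and Nfxl1 arrays. The labels do not join those 6 arrays into a group, and they are called the 6 arrays below only to save repeating their names. Of the neural progenitor markers, Nes (nestin) had log2 levels of 3.34 and 3.52 in the controls, Vim 6.46 and 6.38 and Sox2 0.50 and 0.47, while Nr2e1 was above background on no array and Fabp7 and Olig2 on 5 and 3. On those 6 arrays the difference of Nes from the control mean was -1.51 to -1.08, while the median of the 14 markers measured was -0.18 to -0.01. There 1 to 3 markers lay at least 2-fold above both controls, beside 9.59% to 10.7% of all genes tested.

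Levels are given as log2 intensity relative to the 75th percentile of the same array, so 0 marks that percentile, and differences are from the mean of the EGFP and mock arrays. Between the controls the 40 genes differed little. EGFP minus mock had a median of 0.02 (range -0.14 for Mybl2 to 0.17 for Ttk, SD over genes 0.063), and none differed 2-fold. The SD was 0.172 over the 16074 genes whose probes passed background on every array. In 35 of the 40 genes the control level was at or above the 75th percentile, so most of the programme was read from bright probes.

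The mitotic genes as a whole were lower than in the controls on the arrays of 6 factors and close to them on the other 4. The median difference over the 40 genes was -0.78 with Pax6, -0.64 with Pdx1, -0.61 with Esx1, -0.61 with Sox11, -0.60 with Zfp451 and -0.53 with Crebzf. Over all genes tested the medians on the same arrays were -0.08, -0.20, -0.20, -0.20, -0.09 and -0.08. With Hmga2, Gatad2b, Etv6 and Nfxl1 the 40 genes had medians of -0.06, 0.03, -0.13 and -0.0026, against -0.04, 0.02, -0.02 and -0.01 over all genes. Differences were moderate in size, so that many genes passed a 1.5-fold limit and few a 2-fold limit.

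**Figure D2:**
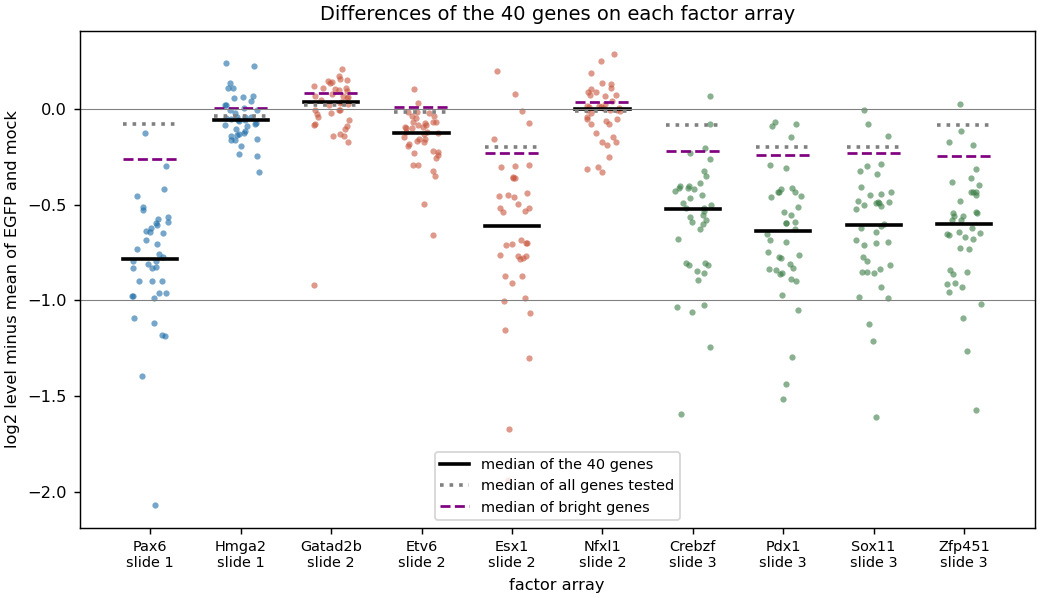
Difference of each of the 40 genes from the mean of the EGFP and mock arrays (log2, vertical axis) on each factor array, 1 point per gene, with the median of the 40 genes (solid), of all genes tested (dotted) and of genes at or above the 75th percentile in the controls (dashed). The solid line is at -0.78 with Pax6 and between -0.64 and -0.53 on the Esx1 and slide 3 arrays, and within 0.13 of 0 on the other 4.

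Counted at 1.5-fold below both controls, 30 of the 40 genes qualified with Pax6, where 16.5% of all genes tested did. The counts were 23 with Pdx1 (19.2% of all genes), 20 with Esx1 (19.7%), 20 with Sox11 (19.3%), 20 with Zfp451 (18.1%) and 13 with Crebzf (18.1%). On the other 4 arrays 1 gene qualified with Gatad2b (3.39%), 1 with Etv6 (3.71%), and none with Hmga2 (1.95%) or Nfxl1 (4.99%). The gene was Cenpa in both cases. Most of the 40 genes are bright, and among the 7932 genes at or above the 75th percentile in the controls the 1.5-fold share was higher, between 23.3% (Crebzf) and 27.6% (Pax6) on the 6 arrays, with medians of -0.26 to -0.22.

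At 2-fold the counts were small. With Pax6, 6 of the 40 genes lay at least 2-fold below both controls (6.39% of all genes tested). With Esx1 and Crebzf, 5 did (7.42% and 6.28%), with Pdx1 and Zfp451, 4 (6.63% and 6.30%), and with Sox11, 3 (6.93%). None did with Hmga2 (0.573%), Gatad2b (1.0%), Etv6 (0.835%) or Nfxl1 (1.17%). No mitotic gene lay at least 2-fold above both controls on any array. That upward share of all genes was 10.7% with Pax6, 10.4% with Esx1, 9.83% with Crebzf, 9.86% with Pdx1, 9.75% with Sox11 and 9.59% with Zfp451, and 0.434% with Hmga2, 0.644% with Gatad2b, 1.04% with Etv6 and 0.301% with Nfxl1. Quantile normalization forces the arrays to 1 distribution. Under it the lower counts became 2 with Pax6 (6.23% of all genes tested) and 3 with Esx1 (6.91%). On slide 3 they were 2 each with Crebzf (5.97%), Pdx1 (5.52%), Sox11 (5.84%) and Zfp451 (5.89%). These counts were near the shares of all genes. The medians became -0.59 (Pax6), -0.44 (Esx1), -0.37 (Crebzf), -0.45 (Pdx1), -0.45 (Sox11) and -0.42 (Zfp451).

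**Figure D3:**
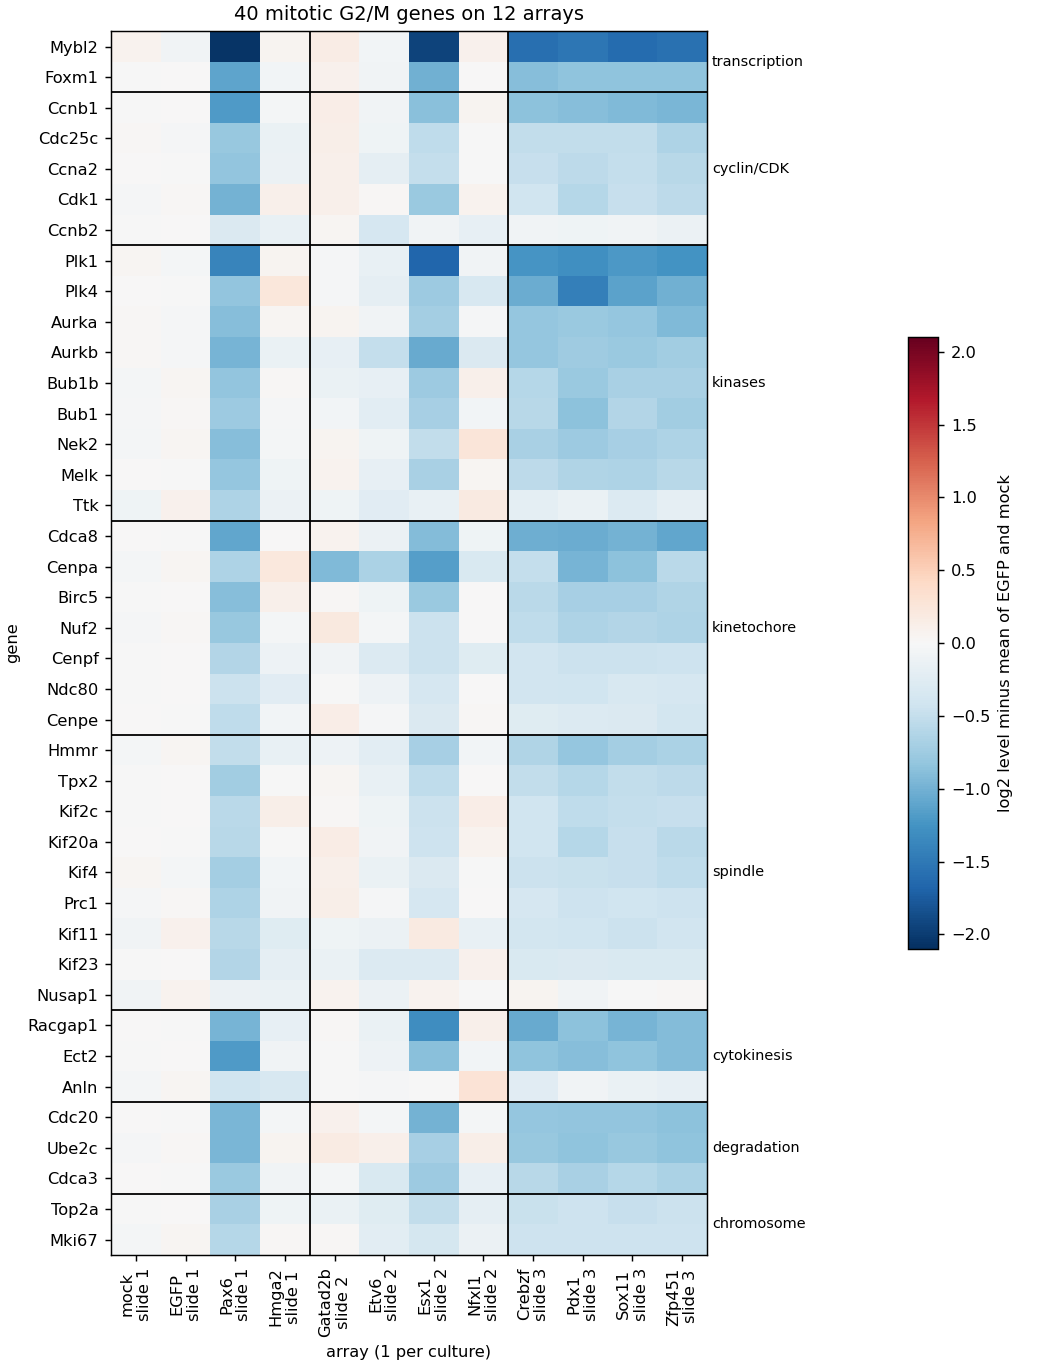
Difference of each gene from the mean of the EGFP and mock arrays (log2, colour; blue is lower) on each of the 12 arrays, grouped by role in rows and by slide in columns. Mybl2 and Plk1 are darkest, with differences down to -2.07 and -1.67, and Ccnb2, Nusap1 and Anln stay pale across the columns.

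The 2 transcription factors of the programme were both lower on the 6 arrays, and Mybl2 had the lowest difference of the 40 genes on each of them. Mybl2 encodes B-Myb, which joins MuvB at mitotic promoters (probe at chr2:162824323-162824380 on mm7, the build of the files). Its log2 level was 1.85 with EGFP and 1.99 with mock, 1.98 with Hmga2, 2.07 with Gatad2b, 1.87 with Etv6 and 2.01 with Nfxl1, and -0.15 with Pax6, -0.02 with Esx1, 0.33 with Crebzf, 0.40 with Pdx1, 0.31 with Sox11 and 0.35 with Zfp451. The 6 lower arrays and the other 6 did not overlap, with a gap of 1.45. The level with Pax6 was 4.19-fold below the control mean, with Esx1 3.83-fold, and on the slide 3 arrays between 2.86-fold and 3.05-fold. The difference between EGFP and mock, -0.14, was small beside these.

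Foxm1 encodes the forkhead factor that follows B-Myb in G2 (probe at chr6:128398004-128398063). Its level was 2.39 with EGFP and 2.38 with mock, 2.33 with Hmga2, 2.48 with Gatad2b, 2.32 with Etv6 and 2.39 with Nfxl1, and 1.27 with Pax6, 1.39 with Esx1, 1.496 with Crebzf, 1.55 with Pdx1, 1.54 with Sox11 and 1.54 with Zfp451. Again the arrays fell into non-overlapping levels, with a gap of 0.77, and the difference reached 2-fold below both controls with Pax6 only (-1.11). With Esx1 it was -1.003, and on the slide 3 arrays -0.89 to -0.84.

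Ccna2, Ccnb1, Ccnb2, Cdk1 and Cdc25c all lay below both controls on the 6 arrays. Ccnb2 did so by little and turned above the control mean under quantile normalization. Cdk1, the mitotic kinase itself (probe Cdc2a at chr10:68946079-68948488), had levels of 3.33 with EGFP and 3.27 with mock, 3.40 with Hmga2, 3.41 with Gatad2b, 3.33 with Etv6 and 3.37 with Nfxl1, and 2.31 with Pax6, 2.51 with Esx1, 2.88 with Crebzf, 2.70 with Pdx1, 2.81 with Sox11 and 2.75 with Zfp451. The difference was -0.99 with Pax6 and -0.78 with Esx1, and smaller on slide 3, from -0.60 with Pdx1 to -0.41 with Crebzf. Ccnb1, the cyclin B1 subunit that activates Cdk1 (probe at chr13:97885282-97885341), had levels of 2.89 with EGFP and 2.88 with mock, 2.84 with Hmga2, 3.03 with Gatad2b, 2.81 with Etv6 and 2.95 with Nfxl1, and 1.70 with Pax6, 2.01 with Esx1, 2.02 with Crebzf, 1.99 with Pdx1, 1.95 with Sox11 and 1.93 with Zfp451. It was 2.27-fold below the control mean with Pax6, and between 1.81-fold and 1.94-fold below on the other 5. Its other 2 probes gave smaller differences of the same sign, -0.73 and -0.71 with Pax6.

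Ccnb2, the second B-type cyclin (probe at chr9:70439814-70439873), had levels of 5.33 with EGFP and 5.30 with mock, 5.15 with Hmga2, 5.35 with Gatad2b, 4.96 with Etv6 and 5.14 with Nfxl1, and 5.01 with Pax6, 5.24 with Esx1, 5.23 with Crebzf, 5.22 with Pdx1, 5.23 with Sox11 and 5.20 with Zfp451. Its lowest level was with Etv6, -0.35 from the control mean, and the slide 3 arrays lay within 0.12 of that mean, so its order of arrays differed from that of Ccnb1. Under quantile normalization its differences on the 6 arrays were 0.01 to 0.20, and the sign also changed on at least 1 of them for Cenpe, Nusap1 and Anln. Ccna2, cyclin A2, differed by -0.82 with Pax6 and by -0.58 to -0.49 on the other 5. Cdc25c, the phosphatase that activates Cdk1, differed by -0.79 and -0.65 to -0.51.

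**Figure D4:**
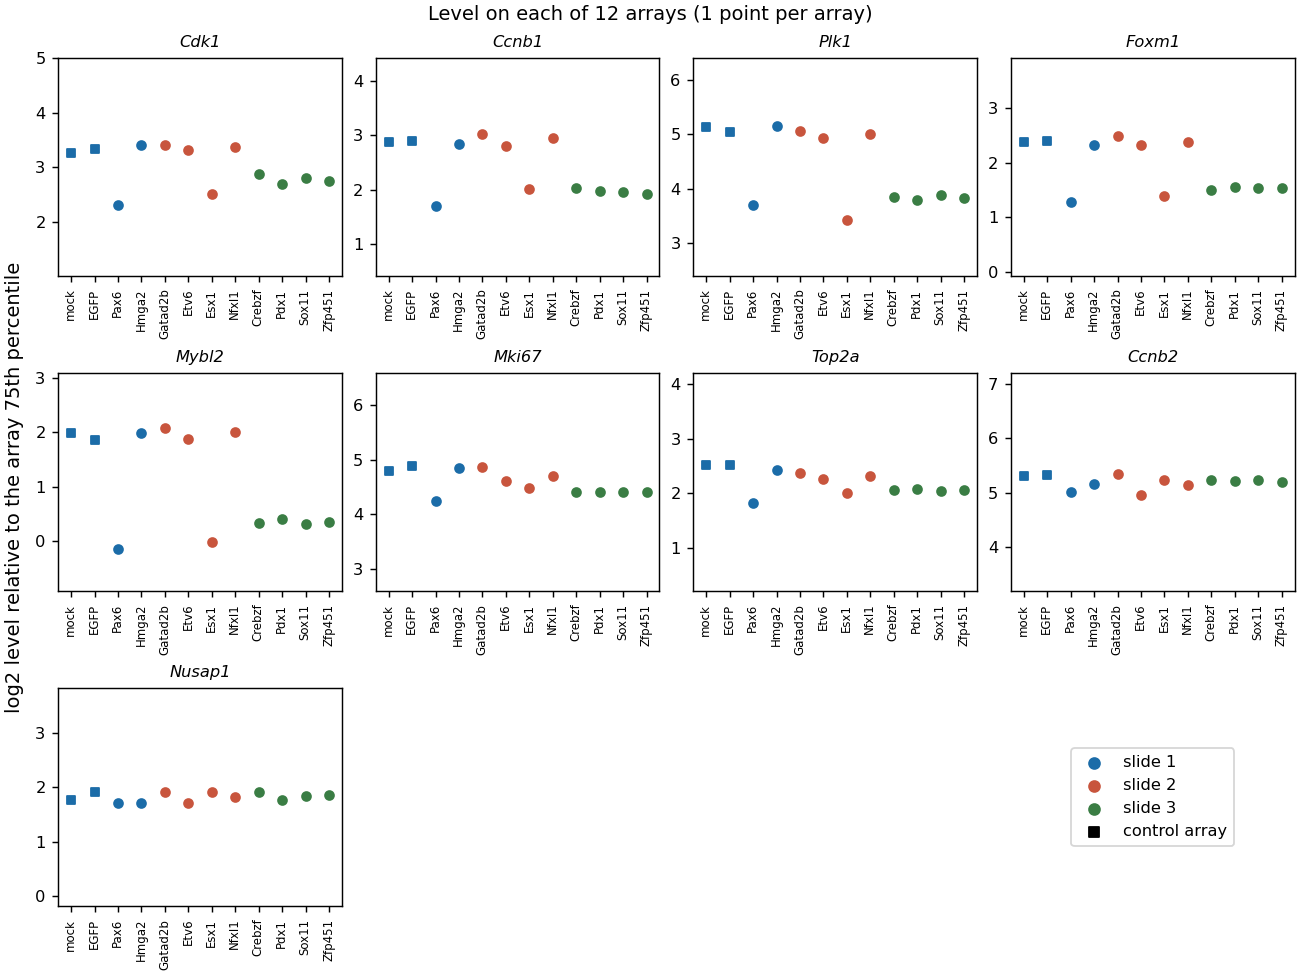
Level of Cdk1, Ccnb1, Plk1, Foxm1, Mybl2, Mki67, Top2a, Ccnb2 and Nusap1 on each of the 12 arrays (log2 relative to the array's 75th percentile, vertical axis of equal span in each panel), 1 point per array, coloured by slide, with the controls as squares. In the first 7 panels the Pax6, Esx1 and slide 3 points lie below all others; in the Ccnb2 and Nusap1 panels they do not.

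Among the 9 kinases, Plk1 was at least 2-fold below both controls on all 6 arrays. Plk1 encodes Polo-like kinase 1, which acts from mitotic entry to cytokinesis (probe at chr7:118093971-118094030), and its level was 5.04 with EGFP and 5.14 with mock, 5.14 with Hmga2, 5.06 with Gatad2b, 4.93 with Etv6 and 5.01 with Nfxl1, and 3.69 with Pax6, 3.42 with Esx1, 3.85 with Crebzf, 3.79 with Pdx1, 3.88 with Sox11 and 3.82 with Zfp451. The lowest array was Esx1, 3.18-fold below the control mean, followed by Pax6 at 2.63-fold, and the slide 3 arrays lay between 2.31-fold and 2.45-fold. The gap between the highest of the 6 and the lowest of the other arrays was 1.05. Under quantile normalization Plk1 differed by -1.02 to -0.95 on slide 3 and was no longer 2-fold below both controls there. Plk4, the kinase that starts centriole duplication, was at least 2-fold below both controls on the 4 slide 3 arrays, with -1.03 for Crebzf, -1.44 for Pdx1, -1.12 for Sox11 and -1.02 for Zfp451. Its second measured probe gave -0.74, -0.76, -0.75 and -0.73 there, short of 2-fold.

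The remaining kinases were lower on the 6 arrays by less than Plk1. Aurka, which acts at the spindle poles, had differences of -0.93 to -0.71 on the 6 arrays. Aurkb, the catalytic subunit of the chromosomal passenger complex, had -1.06 to -0.73, with 2-fold reached with Esx1, and it was also below the controls with Etv6 (-0.50) and Nfxl1 (-0.31). Bub1 and Bub1b, of the spindle checkpoint, ranged over -0.86 to -0.59 and -0.83 to -0.60. Nek2, a centrosome kinase, ranged over -0.90 to -0.52 and Melk over -0.81 to -0.55. Ttk, the checkpoint kinase Mps1, differed by -0.64 with Pax6 but only by -0.29 to -0.15 on the other 5, and its levels there overlapped those of the other arrays.

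The 7 centromere and kinetochore genes had moderate differences, apart from Cdca8 and Cenpa. Cdca8 encodes borealin, of the chromosomal passenger complex, and its differences were -1.09 with Pax6, -0.91 with Esx1, -1.03 with Crebzf, -1.05 with Pdx1, -0.99 with Sox11 and -1.09 with Zfp451. These straddle 2-fold, so the 4 arrays on which it passed that limit stand beside 2 with neighbouring values. Its 2 dimmer probes gave another order, with -1.30 and -1.41 for Esx1 and -0.82 and -0.50 for Pax6. Over the 6 arrays they ranged over -1.32 to -0.76 and -1.41 to -0.50. Birc5 (survivin), of the same complex, ranged over -0.90 to -0.56. Nuf2 and Ndc80, subunits of the complex that grips microtubules, ranged over -0.79 to -0.46 and -0.46 to -0.34. Cenpf and the motor Cenpe ranged over -0.61 to -0.40 and -0.53 to -0.26.

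Cenpa, the centromeric histone, followed the slides as well as the factors. Its levels were 1.75 with EGFP and 1.68 with mock, 1.94 with Hmga2, 0.80 with Gatad2b, 1.05 with Etv6 and 1.40 with Nfxl1, and 1.07 with Pax6, 0.56 with Esx1, 1.21 with Crebzf, 0.74 with Pdx1, 0.86 with Sox11 and 1.16 with Zfp451. All 4 slide 2 arrays lay below the controls, Gatad2b and Etv6 included, and the Gatad2b level was below that of Pax6. Its difference with Esx1 was -1.15 from the controls on slide 1, and -0.52 from the mean of the other 3 arrays on slide 2.

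None of the 9 spindle genes was 2-fold below both controls on any array. Tpx2, which activates Aurora A on the spindle, ranged over -0.73 to -0.51 on the 6 arrays, and Hmmr, a spindle-associated protein, over -0.81 to -0.51. The motors Kif2c (-0.56 to -0.42), Kif4 (-0.71 to -0.31), Kif20a (-0.59 to -0.41) and Kif23 (-0.62 to -0.29), and the midzone bundler Prc1 (-0.64 to -0.35), had similar values. Kif11, the motor that separates the spindle poles, differed by 0.19 with Esx1 and by -0.58 to -0.39 on the other 5. Its other 2 probes were -0.73 and -0.69 with Esx1, so the probes of Kif11 disagree on that array. These 2 dimmer probes were also -0.90 to -0.55 on the other slide 2 arrays.

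Nusap1, a spindle microtubule binder (probe at chr2:119390185-119390244), had the highest median difference of the 40 genes. Its levels were 1.91 with EGFP and 1.76 with mock, 1.70 with Hmga2, 1.90 with Gatad2b, 1.72 with Etv6 and 1.83 with Nfxl1, and 1.71 with Pax6, 1.91 with Esx1, 1.90 with Crebzf, 1.76 with Pdx1, 1.83 with Sox11 and 1.86 with Zfp451, a total range of 0.21. EGFP and mock, which differ by 0.15, span most of that range. Its second probe, on dimmer signal, lay 0.21 to 0.46 above the control mean on the Pax6, Esx1, Crebzf, Pdx1 and Sox11 arrays and at -0.04 with Zfp451.

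Of the 3 cytokinesis genes, Ect2 and Racgap1 were lower and Anln was not uniformly so. Ect2, the exchange factor that activates RhoA at the cleavage furrow, differed by -1.19 with Pax6 and -0.91 to -0.85 on the other 5. Racgap1, its partner in centralspindlin, had its lowest level with Esx1 (-1.30) and was also at least 2-fold below both controls with Crebzf (-1.06). Its second probe gave -1.06 with Esx1 and -1.46 to -1.26 on the slide 3 arrays. Anln, anillin, ranged over -0.42 to -0.01, while its dimmer second probe reached -0.87 with Pdx1.

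The 3 genes of mitotic protein breakdown were lower on the 6 arrays, none of them by 2-fold. Cdc20, the activator of the anaphase-promoting complex, had differences of -0.99 to -0.81, and Ube2c, the ubiquitin-conjugating enzyme of that complex, -0.96 to -0.70. Cdca3, a trigger of mitotic entry, had -0.77 to -0.58. With Esx1 Cdc20 reached -0.99, just short of 2-fold.

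The proliferation markers of histology were lower by small amounts on their brightest probes. Mki67, the antigen of the Ki-67 antibody (probe at chr7:132094802-132094861), had levels of 4.88 with EGFP and 4.80 with mock, 4.86 with Hmga2, 4.87 with Gatad2b, 4.62 with Etv6 and 4.71 with Nfxl1, and 4.24 with Pax6, 4.48 with Esx1, 4.42 with Crebzf, 4.41 with Pdx1, 4.41 with Sox11 and 4.41 with Zfp451. On this probe the 6 arrays lay below the rest, with a gap of only 0.14, and its differences were -0.60 to -0.36. The second Mki67 probe ranged from -0.70 (Pax6) to -0.27 (Esx1) on the 6 arrays. It gave -0.29 with Etv6, so there the 6 arrays overlapped the others. Top2a, topoisomerase II alpha (probe at chr11:99104969-99105783), had levels of 2.51 with EGFP and 2.51 with mock, 2.42 with Hmga2, 2.37 with Gatad2b, 2.25 with Etv6 and 2.32 with Nfxl1, and 1.83 with Pax6, 1.99 with Esx1, 2.05 with Crebzf, 2.08 with Pdx1, 2.03 with Sox11 and 2.06 with Zfp451. On this probe its differences were -0.69 to -0.44, at most 1.61-fold. A second probe ranged from -0.99 (Pdx1) to -0.42 (Pax6) on the 6 arrays, and gave -0.44 with Nfxl1. The dimmest probe ranged from -1.26 (Esx1) to -0.05 (Pax6), and gave -0.81 with Gatad2b and -0.75 with Etv6. On these 2 probes the 6 arrays thus overlapped the others.

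The order of the arrays was shared by most of the genes. In 34 of the 40, the levels on the 6 arrays (Pax6, Esx1 and slide 3) were all below the other 6 arrays, an order found in 32.5% of the 16074 genes well above background throughout. The exceptions were Ccnb2, Kif11, Cenpa, Nusap1, Ttk and Anln. Under quantile normalization the count was 26 of 40, against 30.6% of genes. The Pax6 array was the lowest of the 12 for 28 of the 40 genes, against 18.0% of all those genes (25 of 40 under quantile normalization). Esx1 was the lowest for 5, Pdx1 for 4, and Etv6, Hmga2 and Zfp451 for 1 each.

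Comparisons between arrays of the same slide do not cross slides. Pax6 shared slide 1 with both controls and with Hmga2, and the median over the 40 genes was -0.78 for Pax6 minus EGFP, -0.78 for Pax6 minus mock and -0.73 for Pax6 minus Hmga2. Esx1 shared slide 2 with Gatad2b, Etv6 and Nfxl1, and the medians were 0.61 for Gatad2b minus Esx1, 0.44 for Etv6 minus Esx1 and -0.59 for Esx1 minus Nfxl1. Mybl2, Plk1 and Racgap1 were at least 2-fold below each of the 3 slide mates with Esx1, 3 of 40 beside 5.59% of all genes tested. The lower levels with Pax6 and with Esx1 were thus present against arrays of the same slide.

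On slide 3 the 4 arrays were nearly alike. The median over the genes of the range across Crebzf, Pdx1, Sox11 and Zfp451 was 0.10, against 0.15 over all genes well above background, and no mitotic gene differed 2-fold between any 2 of them. The widest ranges were those of Cenpa (0.47) and Plk4 (0.42), both with Pdx1 lowest, and the narrowest that of Mki67 (0.0080). Slide 3 held no control array, so for these 4 factors the factor and the slide cannot be told apart. When levels were centred within each slide, the median differences became -0.18 (Crebzf), -0.24 (Pdx1), -0.20 (Sox11) and -0.21 (Zfp451), and no gene was 2-fold lower; this removes whatever the 4 arrays share.

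The other 4 factors had values near the controls. With Etv6, 35 of the 40 genes lay below both controls by some amount, against 48.6% of genes well above background, and 1 lay above both, against 38.5%. The median with Etv6 was -0.12 against Nfxl1 of the same slide, and 0.16 for Gatad2b minus Etv6. With Hmga2, 25 lay below both (43.6% of genes) and 9 above both (35.0%). Gatad2b ran the other way, with 13 below (35.6%) and 22 above (47.1%), and Nfxl1 was even, with 17 below (46.1%) and 15 above (37.2%). Except for Cenpa, no difference on these 4 arrays exceeded 0.50 in size, and most were within 0.17, the widest gap between the controls. Under quantile normalization the Gatad2b median turned to -0.010 and 19 genes lay below both controls, so no direction holds there.

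Other probes of the genes mostly gave the same sign on the 6 arrays. Of 27 further probes, 4 (for Cenpa, Melk, Nuf2 and Plk4) were above background on no array. Of the other 23, 22 lay below the control mean with Pax6, Esx1, Crebzf, Pdx1 and Sox11 and 23 with Zfp451, with medians of -0.62 to -0.56. The exception was Nusap1. With Etv6 all of these probes also lay below the control mean, from -0.90 (a Kif11 probe) to -0.02 (Cdca3). Many did with Gatad2b and Nfxl1. Lying below that mean therefore does not by itself set the 6 arrays apart. Averaging all probes of a gene changed the median with Pax6 to -0.68. Across the 40 genes the control level and the difference were weakly related, with Pearson's r between -0.20 and -0.08 on the 6 arrays, a description over probes that share the same arrays.

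Genes with CHR letters were not lower throughout than genes without them. With Pax6 the median was -0.69 for the 25 genes with CHR letters and -0.83 for the 9 without, with Esx1 -0.70 and -0.68, and with Sox11 -0.50 and -0.70. The 6 genes with E2F letters had medians of -0.91 with Pax6 and -0.78 with Esx1, against -0.73 and -0.52 for the 28 without. The promoters of Mybl2 and Nusap1, shown earlier, hold none of the exact letters searched, and these genes had the lowest and the highest median difference of the 40. Mybl2 was thus counted among the 28 genes without E2F letters, although it holds the near match ttggcgg. Whether either promoter holds a working element was not tested.

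Genes that work beside these 40 were lower to a like or smaller degree. Of 22 other kinetochore genes, 0 to 4 were at least 2-fold below both controls on the 6 arrays and none on the other 4. The list medians on the 6 arrays were -0.62 to -0.35. The share of all genes tested called lower on the 6 arrays was 6.28% to 7.42%, and it stands beside the counts for the lists that follow. Incenp, the scaffold of the passenger complex, differed by -1.04 with Pax6 and -1.02 with Zfp451, and Mad2l1, of the spindle checkpoint, by -1.18 with Pax6 and -1.10 with Esx1. Of 20 other spindle genes, 0 to 4 were called, with medians of -0.63 to -0.45. Gtse1, a microtubule-end protein, differed by -2.34 with Esx1 but also by -0.99 with Gatad2b and -0.98 with Etv6. Of 7 condensin genes at most 1 was called (Smc2, -2.08 with Esx1 and -0.70 with Pax6), with medians of -0.69 to -0.45.

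The cohesin and separase genes contained a gene with the opposite sign. Pttg1, securin, the inhibitor of separase, was 2.32 to 3.04 log2 units above the control mean on the 6 arrays, from control levels of -3.03 and -3.04. Espl1, separase itself, was at least 2-fold below both controls with Pax6 (-1.20), Esx1 (-1.33), Crebzf (-1.09) and Zfp451 (-1.06). The 12 genes of that list had medians of -0.52 to -0.27. The 15 subunits and regulators of the anaphase-promoting complex had medians of -0.40 to -0.26, with at most 1 called.

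Among 12 genes of MuvB, DREAM and their E2F partners, 1 to 3 were called lower on the 6 arrays and the medians were -0.34 to -0.12. Lin54, the subunit that reads CHR elements, differed by -1.17 with Pax6 and -0.84 to -0.68 on the other 5. E2f4, a repressor E2F of DREAM, was called on 8 arrays, including Gatad2b (-1.23) and Etv6 (-1.17), and Tfdp1, its dimer partner, on 4. Of 13 genes listed around the control of Cdk1, Ccnf (cyclin F) alone was called, on all 6 arrays (-1.43 to -1.03). Wee1, which inhibits Cdk1, was called on none (-0.35 to 0.13 over the 10 factor arrays). The list median was -0.84 to -0.48. The 11 reference genes measured, such as Actb and Hprt, had medians of -0.34 to -0.22 on the same arrays, with none called.

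**Figure D5:**
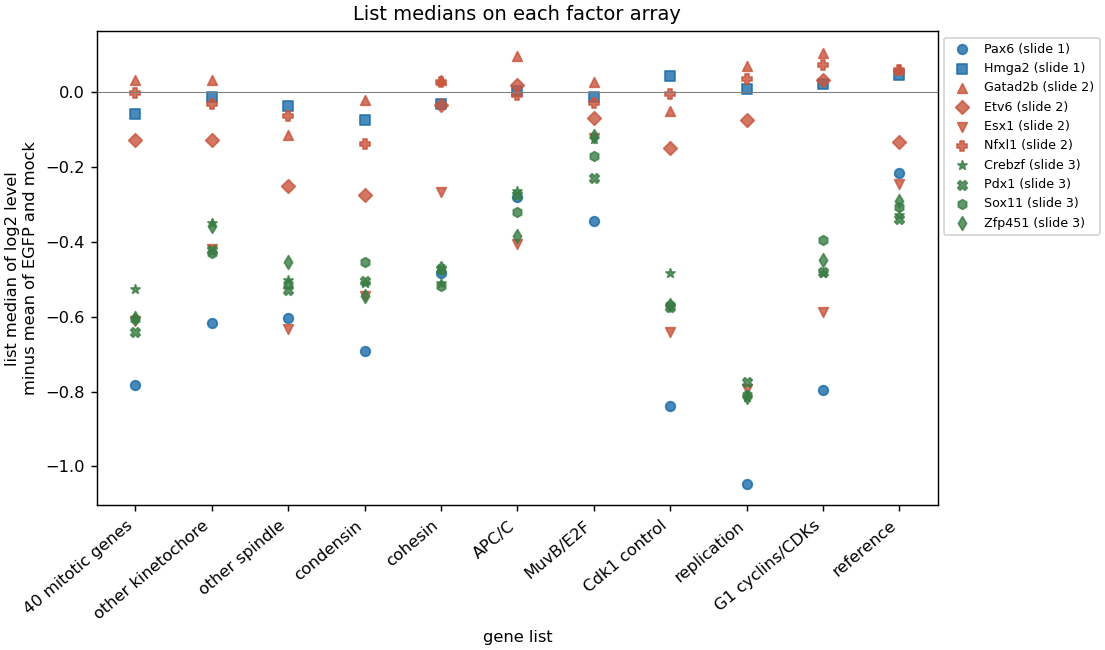
Median difference from the mean of the EGFP and mock arrays (log2, vertical axis) for the 40 genes and 10 related lists, 1 marker per factor array, coloured by slide. The Pax6, Esx1 and slide 3 markers lie lowest in the replication list (-1.05 to -0.77) and at -0.34 to -0.12 in the MuvB and E2F list, and the reference genes are also below 0 there.

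Summed markers of some other cell types were higher on the 6 arrays, where the mitotic genes were lower, and other sums overlapped. The summed linear level of 11 fibroblast or mesenchymal markers was 246 to 267 on the 6 arrays and 114 to 123 on the other 6. Of the 11, 5 to 7 were called higher on the 6 arrays. The share of all genes tested called higher there was 9.59% to 10.7%, and it stands beside each such count below. Sums for 9 astrocyte markers were 32.2 to 38.7 against 14.8 to 17.4, with 2 to 4 called higher, although the list median was -0.24 to 0.97 and Gfap was above background on 1 array, and for 9 measured neuronal markers 1.75 to 2.01 against 0.951 to 1.09, with 4 or 5 called higher and Neurod1 above background on none. The neural progenitor sum was 87.9 to 105 against 101 to 129. For oligodendrocyte markers it was 3.74 to 4.73 against 2.97 to 3.84, and for embryonic stem cell markers 0.606 to 0.716 against 0.441 to 0.479, with 1 of the 6 called lower and none higher. Microglial (0.192 to 0.240 against 0.148 to 0.255) and endothelial sums (0.0702 to 0.0853 against 0.0650 to 0.0858) overlapped, and Itgam, Tyrobp, C1qa, Trem2, Pecam1 and Cdh5 were above background on no array. The part of other cell types in the mitotic differences was not tested.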

How the data were processed

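RNA of 12 cultures (0.25 µg each) was labelled with Cy3 and hybridised to one-colour Agilent arrays, per the labels' protocols. The deposited files are output of Agilent Feature Extraction 10.7.3.1. Per the file headers, a spot's value is its linear intensity after background subtraction, and probe positions are on mm7. The deposited value table equals that intensity on every array. Exon or UTR positions of probes were not established here.

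Outlier spots were dropped and spots of 1 probe averaged (43379 spots, 41174 probes). The log2 of each array's intensities was set relative to its 75th percentile (823 to 1026 units) over non-control spots, after values under the lowest well-above-background signal were raised to it. Probes well above background made up 62.5% to 69.1%, with no saturated spot. Precision is limited by having 12 arrays. Probes were named from RefSeq by accession (22944), symbol (6664) or synonym (3108), or as in the file (8458), and the probe with the highest mean stands for a gene. A gene was called when at least 2-fold below, or above, both controls, provided the brighter side was well above background. All 10 factors share the 2 controls. With no replicates, no p-value was computed.

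Levels on all arrays are given for Cdk1, Ccnb1, Plk1, Foxm1, Mybl2, Mki67, Top2a and the genes with the 2 lowest and 2 highest median differences, and differences on some arrays for at most 3 genes of each related list, plus Lin54, E2f4, Wee1 and Cdkn1a. Cenpa was added after its values were seen. The genes, lists and rules were chosen with earlier results of these data known. The calling was tested on simulated shifts of 1.5 and 2 log2 units, larger than most differences reported here. Its noise came from the 2 controls of slide 1, so it does not cover differences between slides. Python 3.11.15, pandas 2.3.3, numpy 2.4.6, R 4.3.3 and limma 3.58.1 (normexp with offset 50, quantile normalization) were used. Alternatives were these normalizations, the mean of all probes, genes above background on all arrays, centring within slides, 1.5-fold and 3-fold limits, either control as the only reference, and as reference the other 9 factor arrays' median; a restriction to bright genes was added after seeing the data.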

Additional observations from a re-analysis of the deposited data

How the results depend on the processing

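Calls and medians kept their direction under each alternative apart from the cases given here, and from medians within 0.04 of 0 on Gatad2b (-0.010 under quantile normalization) and Nfxl1 (0.0089 at most, with mock alone), and the cause was not tested unless the setting itself gives it. With quantile normalization the medians became -0.59 (Pax6), -0.44 (Esx1), -0.37 (Crebzf), -0.45 (Pdx1), -0.45 (Sox11) and -0.42 (Zfp451). On Pax6, Esx1, Crebzf, Pdx1 and Zfp451, 2, 3, 2, 2 and 2 genes were called lower. The shares of all genes called lower there were 6.23%, 6.91%, 5.97%, 5.52% and 5.89%. That scaling moved the median of all genes tested from -0.20 to -0.02 on Esx1, Pdx1 and Sox11. It also moved the split of all 2-fold calls, lower against higher, from 120 and 91 to 95 and 121 on Hmga2, from 210 and 135 to 174 and 190 on Gatad2b, from 175 and 219 to 152 and 301 on Etv6, and from 246 and 63 to 178 and 111 on Nfxl1. At 1.5-fold the counts were 30 (Pax6), 20 (Esx1), 13 (Crebzf), 23 (Pdx1), 20 (Sox11), 20 (Zfp451), 1 (Gatad2b) and 1 (Etv6); at 3-fold they were 1 on Pax6, 2 on Esx1 and 0 on Crebzf, Pdx1, Sox11 and Zfp451. Centred within slides, the medians were -0.18 (Crebzf), -0.24 (Pdx1), -0.20 (Sox11) and -0.21 (Zfp451), with 0 called on each, since the 4 arrays of slide 3 were alike. These medians do not measure a lowering on slide 3, because the slide 1 centre includes the low Pax6 array. Normexp correction and the mean of all probes each gave 3 on Crebzf, and the mean of all probes a median of -0.68 on Pax6. Bright genes alone gave -0.68 on Esx1. Against the median of the other 9 factor arrays, which holds other lowered arrays, the medians were -0.25 (Pax6), -0.026 (Esx1), -0.017 (Crebzf), -0.073 (Pdx1), -0.074 (Sox11) and -0.073 (Zfp451) with 0 called, and 0.52 (Hmga2), 0.57 (Gatad2b) and 0.52 (Nfxl1). The sign so turned on Hmga2 and Nfxl1, and for Etv6 (0.38), for Mybl2 on Pdx1 (0.056) and for Plk1 on Sox11 (0.031). With EGFP alone or mock alone as reference, each count stayed within 1.5 times. No paired analysis was possible because each group held 1 array and the groups shared fewer than 2 replicate numbers. A single array per factor gives no error, and signal over background did not limit the 40 genes.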

Other observations

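The S phase programme was lower on the same 6 arrays, and by more. Of 26 DNA replication genes, 7 to 13 were at least 2-fold below both controls on the Pax6, Esx1 and slide 3 arrays, where medians were -1.05 to -0.77. The share of all genes tested was 6.28% to 7.42% there. None of the 26 were on the Hmga2, Gatad2b, Etv6 and Nfxl1 arrays, where that share was at most 1.17%. Ung, the uracil glycosylase, differed by -2.19 with Pax6 and -1.95 with Esx1, and Tk1, thymidine kinase, and Gins1, of the replicative helicase, by -1.52 and -1.30 with Pax6. Ccne1, cyclin E1, which acts at entry into S phase, differed by -1.86 with Pax6 and by -1.71 to -1.59 on the other 5. The 8 G1 cyclin and Cdk genes had medians of -0.80 to -0.39.

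The Cdk inhibitors did not share 1 direction. Cdkn1a, p21, was at least 2-fold below both controls with Pax6 (-1.53) and differed by 0.99 with Etv6. Cdkn1c, p57, was not above background in either control and was at least 2.97 log2 units higher with Esx1, Crebzf, Pdx1, Sox11 and Zfp451, but was not well above background with Pax6. Cdkn2a was called higher with Pax6 (1.17), Esx1 (1.16), Crebzf (1.25) and Sox11 (1.54), and its differences of 1.03 with Pdx1 and 0.60 with Zfp451 were like those of 1.02 with Gatad2b and 0.63 with Nfxl1. Of 12 targets of p53, Plk2 and Trp53inp1 were called higher on the 6 arrays (1.44 to 1.62 and 1.24 to 1.41) and Perp on 5 of them and with Etv6, while the list median on the 6 arrays was -0.11 to 0.18.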
